A study of Mus musculus and synthetic construct with 3 samples.

Results

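The wall of the untreated mouse aorta was examined in the 10 control sections of a Seq-Scope array, a flow cell whose surface carries DNA barcodes of known position that capture the poly(A) RNA of a tissue section. The members were all barcodes inside the drawn bounds of the control sections, 820643 of 9837644 barcodes on the whole array, of which 262384, 245170 and 313089 belonged to control mice 1, 2 and 3. Bounds span the full width of the array, so they hold the ring of the aorta, the tissue around it, its lumen and bare surface. The array carried 20 sections of 10 μm, 10 from control and 10 from aneurysmal aortas. Mice of both groups were male Apoe-/- mice on a normal diet, 16 weeks old by the labels, with a younger age at implantation in the study's methods. A subcutaneous minipump delivered saline to 5 control mice and angiotensin II (AngII, 1000 ng/ml by the labels) to 5 others for 4 weeks. The suprarenal aortas of 3 saline mice and of the 3 AngII mice that developed an abdominal aortic aneurysm (AAA) were embedded in pairs. All mice were perfused with saline before collection. The control mice carried the same Apoe alteration as the AAA mice, so the wall described here is untreated but not wild type, and it came from 3 animals in 3, 3 and 4 sections. All 17 contractile muscle genes on the marker list gave UMIs in it, as did all 9 hepatocyte and all 6 nerve genes. Some lists were incomplete, such as skeletal muscle with 8 of 10 genes. In all, 20204 genes had a UMI in the control wall, so detection of a whole list did not set muscle apart. The labels pool both conditions, and the condition and mouse of each section came from the study's section map.

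The media of the aorta is built of smooth muscle cells between elastic lamellae. Its contractile proteins, the actin and myosin filaments and the proteins that couple them, set the tone of the vessel. The adventitia around it holds fibroblasts that make collagen, and outside it lies perivascular fat, which can be white or brown. Red blood cells and liver proteins such as albumin travel in the lumen, but mature red cells of mice carry only residual globin mRNA and albumin mRNA is made in the liver.

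Exonic unique molecular identifiers (UMIs, each 1 captured transcript) numbered 180612, 139176 and 198904 in control mice 1 to 3, 518692 in all. The map of exonic UMIs showed dense tissue in each section, and 7 of the 10 sections enclosed a lumen. Between 46.5% and 51.2% of the area inside the bounds was dense, meaning 25-μm squares with at least 2 times the between-section density, and these squares carried 80.8% to 85.9% of the UMIs. As background, barcodes on the surface between sections of the same pair were summed over 8 stretches at least 200 μm from any section, with 40257, 114319 and 174893 UMIs for pairs 1 to 3. Of these UMIs 6.50%, 3.06% and 9.99% fell on squares that counted as dense, so the surface was not wholly bare, least so in pair 3. These stretches lay between a control and an AAA section, and how much of their RNA came from either was not tested.

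**Figure D1:**
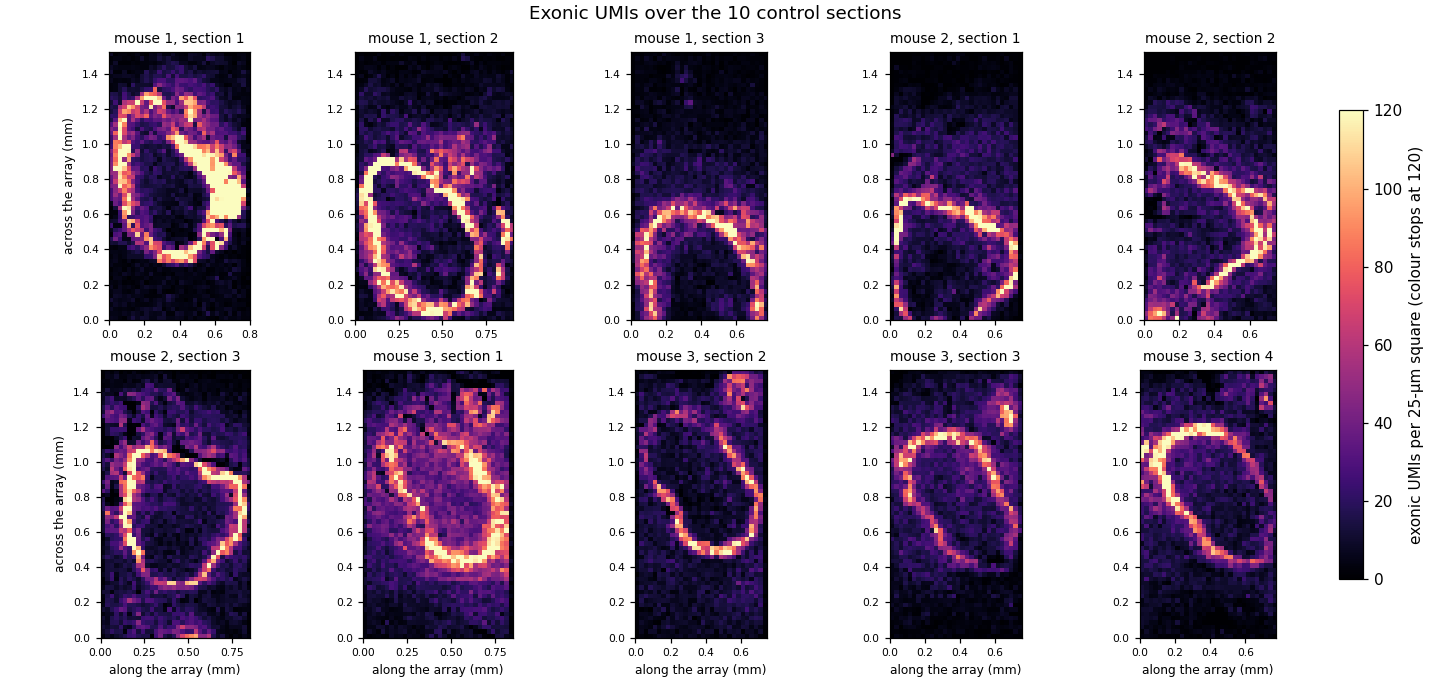
Exonic UMIs per 25-μm square over the 10 control sections, with distance along and across the array in mm. A bright band of tissue runs around a darker lumen, and in 7 sections it closes the lumen off by the criterion used for distances (not in mouse 2 section 2 or mouse 3 sections 1 and 3). In mouse 1 section 3 and mouse 2 section 1 the tissue runs off the edge of the array.

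The control wall carried 3.01 times the UMI density of the surface between sections. Densities were 49725, 40656 and 43515 UMIs per mm² in control mice 1, 2 and 3 and 15486, 14100 and 14907 UMIs per mm² between the sections of pairs 1, 2 and 3. The groups did not overlap, with means of 44632 ± 4637 and 14831 ± 696 UMIs per mm² (SD, n = 3 each). The exact two-sided permutation test gave p = 0.1, the smallest that 3 against 3 allows. Positions had been fitted to the bounds by the profile of these same UMIs. A higher density inside the bounds was thus in part built in, and the test cannot stand as separate evidence for it. The between-section density was thus 31.1%, 34.7% and 34.3% of the wall's in the 3 pairs, and every share given below includes UMIs of that kind. With UMIs over whole genes, introns included, the wall carried 4.69 times the between-section density. A lower signal from a cell type cannot be told apart here from fewer cells of that type.

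Apoe, the gene named by the genotype, was itself among the abundant genes. It gave 755, 702 and 835 UMIs in control mice 1 to 3, which is 4180, 5044 and 4198 CPM (counts per 1000000 exonic UMIs, the scale used for genes throughout). Between sections it stood at 6011, 5660 and 5792 CPM and in the AAA mice at 4797, 4448 and 4571. The counts are per gene and do not show which exons were read, so they do not check the allele. The log2 difference of control wall from between-section surface was -0.29 (SE 0.11, adjusted p = 0.125 by edgeR's quasi-likelihood test).

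Mitochondrial transcripts held the largest share of the gene lists in the control wall. The 13 mitochondrial genes took 10.8%, 10.1% and 10.8% of exonic UMIs in control mice 1 to 3, against 7.50%, 8.26% and 7.96% between sections and 6.68%, 7.37% and 6.51% in the AAA mice. Summed over the whole bounds, control values lay above both other groups without overlap, but the share was uneven over the zones described below. mt-Co2, a subunit of cytochrome c oxidase, led all genes with 27014, 26255 and 30256 CPM. mt-Cytb, of the cytochrome bc1 complex, followed with 23011, 20959 and 22378. The next gene model, Gm42418, overlaps the ribosomal RNA repeat and stood at 18144, 22834 and 13072. Both kinds are kept out of the ranking that follows.

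Among the remaining genes the control wall was led by Mgp, Alb, Acta2, Actb and Mptx1. Mgp encodes matrix Gla protein, an inhibitor of calcification made by smooth muscle cells and chondrocytes, and stood at 9174, 7961 and 10317 CPM. Alb, which encodes albumin, followed with 7497, 9542 and 7200. Acta2, the smooth muscle actin, had 7691, 5698 and 7964. Mouse 2 had the highest Alb and the lowest Acta2 and Mgp. Actb, the cytoplasmic actin, came next with 5504, 5992 and 6114 CPM. Mptx1, a mucosal pentraxin of the intestine, had 4972, 6316 and 5636. Then came Apoe, the translation factor Eef1a1 at 3433 ± 395 CPM (SD, n = 3), the type III collagen gene Col3a1 at 3311 ± 220 and Tpt1 at 3201 ± 137. The other 11 of the leading 20 were the muscle genes Tagln, Myl9 and Myl6, the secreted proteinase inhibitor Cst3, the fat genes Cfd (adipsin) and Scd1 (a fatty acid desaturase), the liver genes Trf and Mup20, the proteoglycan Bgn, the ribosomal protein gene Rps29 and the actin-binding Tmsb4x, the last at 2275 ± 100 CPM. The 20 genes together held 8.14% of exonic UMIs, spread over 20204 genes with a UMI in the control wall.

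**Figure D2:**
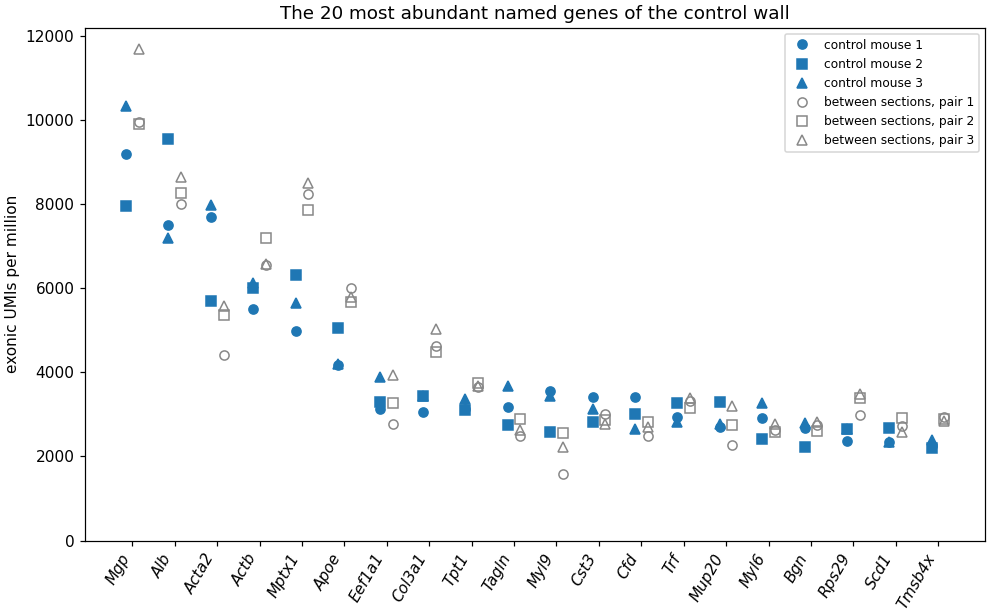
Exonic UMIs in CPM for the 20 genes of highest mean level in the control wall, mitochondrial genes and Gm and Rik gene models left out. Filled points are the 3 control mice and open points the between-section stretches of their pairs. On exonic UMIs Acta2 lies higher in every control mouse than in any stretch, which does not hold over whole genes in the fit, and Mptx1 lies lower.

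A second ranking divided the levels by exon length. On this scale, CPM per kb of exon, Mgp again led with 7709 and Mptx1 followed with 7060. Rplp1, Rps29 and Alb came next with 4512, 3689 and 3450. Acta2 ranked 8 with 3241 and Myl9 ranked 11 with 2745, just behind the globin gene Hba-a2 with 2815. Col3a1, ranked 8 by UMIs, fell to rank 143 with 337. Protocols that capture the 3′ end do not count in proportion to length, so neither ranking measures transcript numbers exactly.

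By the lists used, the balance of muscle and matrix in the control wall was close to even. The matrix list counts Mgp, its most abundant member and one that smooth muscle cells make, so the balance depends on that choice. The 17 contractile smooth muscle genes took 2.52%, 2.00% and 2.62% of exonic UMIs in control mice 1 to 3, and the 14 collagen and matrix genes took 2.36%, 2.26% and 2.63%. The ratio of muscle to matrix was 1.07, 0.883 and 0.998. It was lower between sections, at 0.577, 0.738 and 0.627, and in the AAA mice, at 0.453, 0.509 and 0.433, and neither group overlapped the control mice. Over the 10 control sections the muscle share ran from 1.81% in mouse 2 section 2 through a median of 2.58% to 2.92% in mouse 1 section 3. The matrix share ran from 2.18% through 2.45% to 2.83%. The 10 elastic fibre genes, led by elastin (Eln), added 0.273%, 0.229% and 0.259%, against 0.296%, 0.293% and 0.356% between sections.

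Fat genes took less than muscle and matrix genes in each control mouse. The 17 adipocyte genes held 1.05%, 0.948% and 0.893% of exonic UMIs in control mice 1 to 3. By section their share ran from 0.734% in mouse 1 section 3 through a median of 0.933% to 1.27% in mouse 1 section 1. The stretches between sections held 0.887%, 0.990% and 0.867% and the AAA mice 1.05%, 1.01% and 0.843%, so all groups overlapped. Cfd, the leading member, stood at 3405, 3003 and 2650 CPM. The fatty acid carrier Fabp4 had 1185, 798 and 855 and lipoprotein lipase (Lpl) 725, 604 and 533, highest in mouse 1 in each case. None of the 15 adipocyte genes tested passed between control wall and between-section surface, with a median log2 difference of 0.29 beside 0.00 over all genes. The 6 brown adipocyte genes held only 0.0836%, 0.0560% and 0.0447%. Ucp1, the uncoupling protein of heat production, gave 255, 201 and 201 CPM in the control mice and 74.5, 166 and 194 between sections.

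Of the muscle, matrix, fat and blood lists, blood varied most between mice for its level. The 5 red blood cell genes took 0.384%, 0.481% and 0.150% of exonic UMIs in control mice 1 to 3, against 0.0969%, 0.208% and 0.145% between sections and 0.175%, 0.186% and 0.111% in the AAA mice. Control mice 1 and 2 lay above all other units, and control mouse 3 within their range. The ratio of muscle to blood UMIs was 6.58, 4.15 and 17.4. Reads can be split between near-identical globin copies, so values of single globin genes are uncertain.

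Markers of other cell types were checked alongside. The 9 endothelial genes held 0.0559%, 0.0546% and 0.0623%, within the range between sections of 0.0497% to 0.0669%, and Pecam1 was the leading member with 196 ± 22.5 CPM (SD, n = 3). The 12 macrophage genes held 0.236%, 0.275% and 0.288%, below the 0.385%, 0.511% and 0.422% between sections. The 11 adventitial fibroblast genes held 0.297%, 0.311% and 0.263%, and the 10 basement membrane genes 0.228%, 0.184% and 0.222%, against 0.273% to 0.293% and 0.176% to 0.226% between sections. Genes of skeletal muscle, adrenal, pancreas and nerve held at most 0.0161% in any control mouse, and mesothelial genes 0.0352% to 0.0474%. Immediate early genes, a sign of handling, held 0.0689% to 0.0898%. Ribosomal protein genes (82) held 5.93%, 5.81% and 6.29%, below the 6.63%, 7.09% and 7.05% between sections.

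Liver genes held overlapping shares in the wall and between sections. The 9 hepatocyte genes held 1.64%, 2.06% and 1.63% of exonic UMIs in control mice 1 to 3, 1.84%, 1.88% and 2.01% between sections and 1.82%, 1.70% and 1.72% in the AAA mice. On lane 1 of the array, where no section was mapped, they held 1.26%. Per area, Alb was 3.01, 3.34 and 2.43 times as dense in the control wall as between sections, near the 3.01 times of all UMIs. None of the 9 genes passed between wall and between-section surface, with a median log2 difference of -0.13. Mptx1 behaved otherwise, with 8247, 7855 and 8502 CPM between sections, all above the control wall (log2 difference -0.46, SE 0.10, adjusted p = 0.00186 by edgeR), and 21680 on lane 1. The call was lost without control mouse 1 or 3 (adjusted p = 0.168 and 0.0737). The source of these transcripts was not tested.

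**Figure D3:**
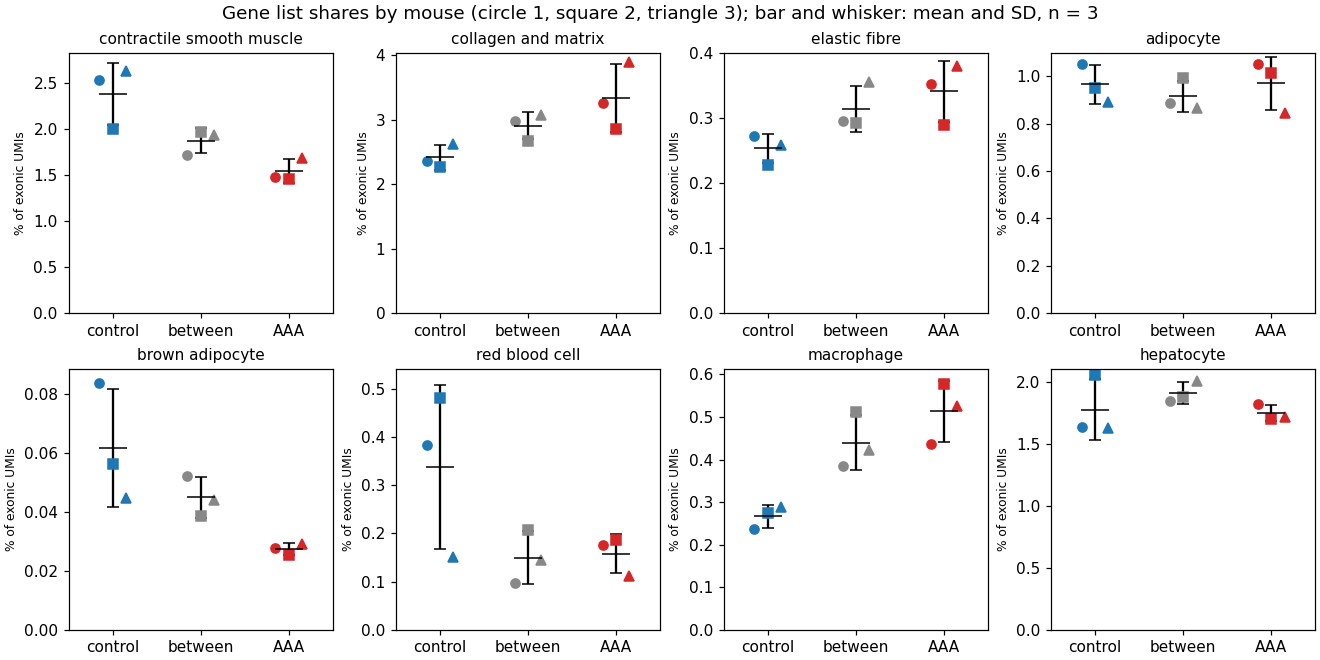
Share of exonic UMIs held by 8 gene lists in the 3 control mice, the 3 between-section stretches and the 3 AAA mice, with mean and SD (n = 3). Muscle and blood lie highest in control means, matrix and macrophage lowest. Adipocyte and hepatocyte shares overlap in all 3 groups.

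Subtracting the density of the pair's between-section stretch from each control mouse left a share for the RNA in excess of the surface. Muscle then stood at 2.89%, 2.01% and 2.98% and matrix at 2.08%, 2.04% and 2.40%. Fat stood at 1.13%, 0.926% and 0.906%, blood at 0.513%, 0.625% and 0.153%, and liver genes at 1.54%, 2.15% and 1.43%. Macrophage genes dropped to 0.168%, 0.150% and 0.217%. Muscle exceeded matrix in mice 1 and 3 after the subtraction, and not in mouse 2.

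The gene lists were laid out differently across the wall. Distance was measured from the edge of the lumen in the 7 sections where a lumen could be enclosed, 3 of mouse 1, 2 of mouse 2 and 2 of mouse 3. The lumen was called as the largest enclosed patch of squares that were not dense, so its low UMI density follows from how it was called. Beyond 200 μm only dense squares were kept, while nearer zones kept all squares, so densities of the zones are not measured alike. In the lumen the UMI density was 16980, 18515 and 18775 per mm² in mice 1 to 3, against 14100 to 15486 between sections. At 50 to 100 μm it was 119001, 85121 and 89021 per mm². Muscle genes were at 2.56%, 2.28% and 2.99% in the lumen, 3.72%, 2.47% and 3.31% at 50 to 100 μm and 2.23%, 1.62% and 2.25% beyond 200 μm, so each mouse was lower beyond 200 μm than nearer the lumen. Acta2 alone went in each mouse from 1.23%, 0.657% and 1.15% at 50 to 100 μm to 0.660%, 0.513% and 0.715% beyond 200 μm. Adipocyte genes ran the other way, with 0.689%, 0.762% and 0.609% at 50 to 100 μm and 1.18%, 1.20% and 1.20% beyond 200 μm. Cfd stood at 0.180%, 0.210% and 0.105% and then at 0.419%, 0.402% and 0.410% in these same zones. Brown adipocyte genes were at 0.0230%, 0.0349% and 0.0176% and then at 0.0780%, 0.111% and 0.0954%, from 3 to 41 UMIs per value. All 3 mice thus had more fat and less muscle beyond 200 μm than at 50 to 100 μm, and mouse 1 reached a fat share of 1.21% already at 100 to 200 μm.

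Blood genes were highest next to the lumen in mouse 1, at 1.03% in the lumen and 1.85% within 50 μm, and had 0.310% beyond 200 μm. In mouse 2 they stayed between 0.274% and 0.577% over all zones. In mouse 3 they decreased from 0.369% in the lumen to 0.0524% beyond 200 μm. Hepatocyte genes ran from 1.47% to 1.66% in mouse 1, from 1.66% to 2.21% in mouse 2 and from 1.67% to 1.93% in mouse 3. Matrix genes had no shared order of zones in the 3 mice. Mitochondrial genes were at 8.53%, 8.97% and 7.12% at 50 to 100 μm in mice 1 to 3. The value of mouse 3 there lay below the 7.50% to 8.26% between sections. They were higher in the lumen, at 15.8%, 11.1% and 8.92%, and beyond 200 μm, at 11.8%, 11.6% and 16.4%. The higher mitochondrial share of the whole bounds is thus not particular to the zone richest in UMIs near the lumen. No test was run over zones, which lie side by side in the same sections.

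**Figure D4:**
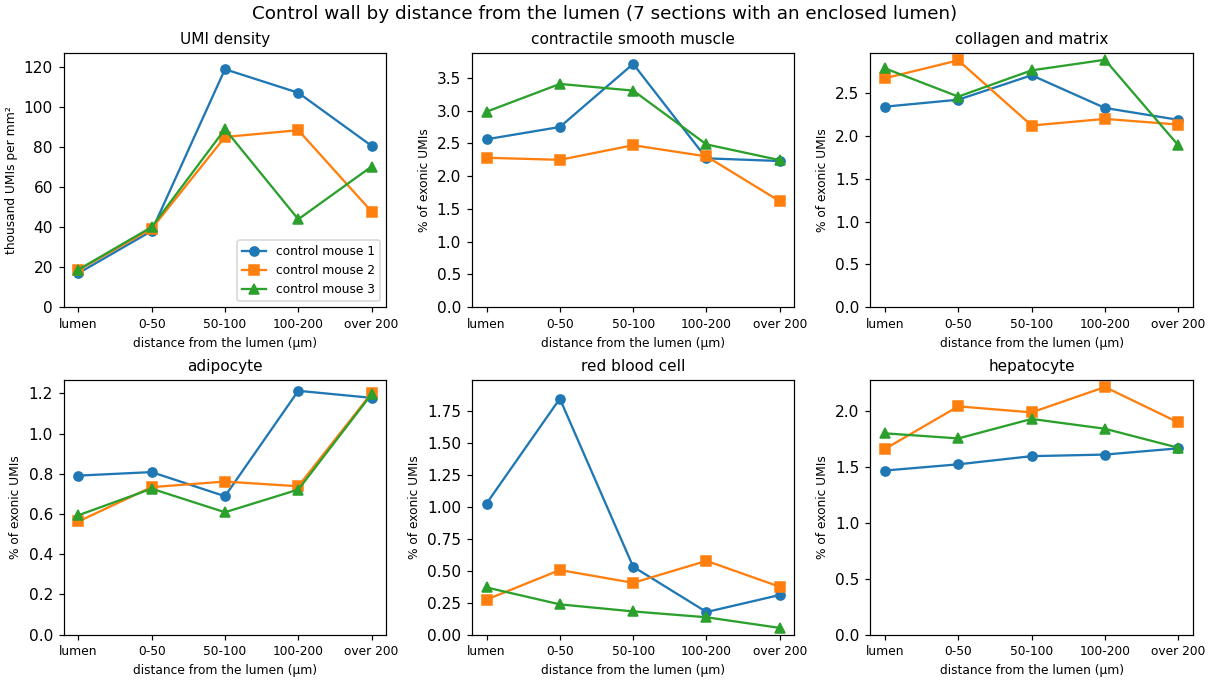
UMIs per mm² (divided by 1000) and the share of exonic UMIs held by 5 gene lists, by distance from the lumen in μm, for the 3 control mice (7 sections). Beyond 200 μm each mouse has a lower muscle share and a higher adipocyte share than at 50 to 100 μm, and hepatocyte shares stay between 1.47% and 2.21%.

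Gene by gene, the control wall was set against the between-section surface of its pairs to find what the tissue added beyond the RNA spread over the array. As a share of exonic UMIs, 6 of 17 contractile, 3 of 4 red blood cell and 9 of 11 mitochondrial genes tested were higher in the wall by edgeR, and 4 of 10 macrophage and 2 of 14 matrix genes were lower. By edgeR's quasi-likelihood test over 3 mice and 3 stretches, 75 of 2838 genes passed adjusted p = 0.05 (2.64%), with 53 higher (1.87%) and 22 lower (0.775%) in the wall. DESeq2 called 29 (1.02%), with 23 higher (0.81%) and 6 lower (0.211%). Of the 75 genes, 22 had a between-section mean that lay between the control and the AAA mean. That count was not made over all 2838 genes, so it cannot be read as a trait of the called ones.

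Of the 17 contractile genes, 6 were higher in the wall and none lower, with a median log2 difference of 0.44 beside 0.00 over all genes. Acta2 had 7691, 5698 and 7964 CPM in the wall and 4422, 5371 and 5586 between sections, a log2 difference of 0.54 (SE 0.11, adjusted p = 1.85e-04 by edgeR). Myl9, the regulatory myosin light chain of smooth muscle, had 3555, 2572 and 3444 against 1590, 2546 and 2236 (0.63, SE 0.12, adjusted p = 1.39e-04). Smtn (smoothelin, a marker of contractile muscle) had 205, 151 and 196 against 49.7, 96.2 and 22.9 (1.91, SE 0.36, adjusted p = 1.03e-04), and without the pair 3 stretch it did not pass (1.21, adjusted p = 0.138). The groups did not overlap for these 3 genes, though control mouse 2 lay close to the stretches for Acta2 and Myl9. Tpm1, Lmod1 and Flna, of the thin filament and its links, were the other 3, and Tpm1 and Lmod1 failed without the pair 3 stretch (adjusted p = 0.131 and 0.380) or control mouse 3 (0.0540 and 0.113). Tpm1 failed also without control mouse 1 (0.0509) and by DESeq2 (0.0733). Without a filter on low counts 20 of all genes passed, and Acta2 and Myl9 did not (adjusted p = 0.583 and 0.313). Tagln (log2 difference 0.34, adjusted p = 0.101) and the myosin heavy chain gene Myh11 (0.55, adjusted p = 0.267) did not pass.

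Per area, Acta2 was 5.58, 3.06 and 4.16 times as dense in the wall as between sections in pairs 1 to 3, and 5.61, 3.06 and 4.17 times with UMIs over whole genes. Over whole genes, however, the share of Acta2 was not higher in the wall (log2 difference -0.22, adjusted p = 0.213), nor were those of Myl9, mt-Co2 and mt-Co1 (-0.14, -0.32 and -0.30), while those of mt-Cytb (-0.44, adjusted p = 0.00849) and mt-Co3 (-0.34, adjusted p = 0.0382) were lower. Tpm1 and Lmod1 did not pass over whole genes either (0.01 and 0.52, adjusted p = 0.978 and 0.231). The direction of the shares of Acta2, Myl9 and the 4 mitochondrial genes thus holds for exonic UMIs alone, and 2407 of 8185 genes passed over whole genes.

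Myl9 is shown with the sequence before its start because, of the 6 muscle genes higher in the wall, it alone held a match to the muscle element searched for. Of the 17 contractile genes 14 had a promoter entry in RefSeq (GRCm38.p6), and 2 of these, Myl9 and Myl6, held a CArG box, the element bound by serum response factor in many muscle genes, within 250 bases before the start. The CArG pattern searched (CC, then 6 bases of A or T, then GG) finds the same sites from either strand, and 1.47% of 32851 promoter windows of that length held one. A match is a description of letters and not a bound site. In the stretch of 206 bases on the plus strand, chr2:156775214-156775419, the box is in capitals and begins 161 bases before the RefSeq start. The printed stretch stops short of that start, so the box lies nearer to the end of the stretch than to the start.
Myl9: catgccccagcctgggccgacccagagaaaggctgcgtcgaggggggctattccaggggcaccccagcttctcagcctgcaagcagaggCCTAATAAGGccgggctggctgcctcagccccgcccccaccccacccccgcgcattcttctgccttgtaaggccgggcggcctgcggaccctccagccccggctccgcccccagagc

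Other wall genes with known roles in vessels passed as well. Sost (sclerostin, an inhibitor of Wnt signalling) had 410, 366 and 458 CPM in the wall and 124, 227 and 200 between sections (log2 difference 1.14, SE 0.22, adjusted p = 1.16e-04 by edgeR). Ptgis (prostacyclin synthase) had 831, 553 and 814 against 373, 464 and 395 (0.92, SE 0.17, adjusted p = 1.09e-04). Hspb1, a small heat shock protein abundant in muscle, had 991, 546 and 784 against 497, 464 and 486 (0.79, SE 0.17, adjusted p = 9.49e-04), but 0.60 with adjusted p = 0.133 without control mouse 1. The groups did not overlap for any of the 3. Over whole genes none of the 3 passed, with log2 differences of 0.33, 0.17 and 0.01 for Sost, Ptgis and Hspb1 (adjusted p = 0.272, 0.511 and 0.983). Without the low-count filter Ptgis and Hspb1 did not pass (adjusted p = 0.0532 and 0.182). Sost and Ptgis were picked after their values were seen.

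Of 4 red blood cell genes tested 3 were higher in the wall by edgeR, and none of the 3 passed by DESeq2. Hbb-bs, a beta globin gene, had 1273, 1538 and 538 CPM against 199, 586 and 326 (log2 difference 1.54, SE 0.20, adjusted p = 7.97e-10). Hba-a2, an alpha globin gene, had 2037, 2781 and 814 against 596, 1251 and 903 (1.02, SE 0.17, adjusted p = 5.81e-06). The groups overlapped for both, since control mouse 3 lay within the range of the stretches. DESeq2 gave adjusted p = 0.200 and 0.515 for these and 0.743 for Hbb-bt, which lost its call in the fit with the pair as a block (0.86, adjusted p = 0.130) and over whole genes (0.45, adjusted p = 0.330).

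Of 13 mitochondrial genes 11 were tested and 9 were higher in the wall by exonic UMIs, with a median log2 difference of 0.47. mt-Co1 had 11860, 10885 and 11046 CPM against 6608, 7322 and 6638 (0.80, SE 0.10, adjusted p = 5.21e-10 by edgeR). A family of 12 near-identical gene models like Gm10800 held the smallest adjusted p (Gm10800, 3.86e-14), with all 10 tested members higher and a median log2 difference of 1.58. Gm10800 itself stood at 3699, 5461 and 4354 against 2161, 2099 and 2047 CPM. Reads cannot be assigned among these copies with certainty. Of the remaining largest differences, D10Wsu102e (1.70, adjusted p = 1.09e-04) passed under every alternative tried, Uck1 and Ppp1cb (1.67 and 1.75, adjusted p = 0.0299 each) did not pass with the pair as a block (adjusted p = 0.0776 and 0.0803) or without some single mice or stretches, and Gm4117 (2.54) turned to -0.11 over whole genes.

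Of 10 macrophage genes tested, 4 were lower in the wall and none higher, with a median log2 difference of -0.71. Gpnmb, a glycoprotein of lipid-laden macrophages, had 321, 438 and 327 CPM in the wall, 373, 918 and 709 between sections and 509, 1015 and 874 in the AAA mice (wall minus surface -0.94, SE 0.18, adjusted p = 1.19e-04 by edgeR). The cathepsin gene Ctss had 122, 151 and 206 against 248, 437 and 355 (-1.10, SE 0.23, adjusted p = 5.79e-04). Lyz2, lysozyme, had 393, 438 and 387 against 621, 901 and 652 (-0.78, SE 0.17, adjusted p = 0.00117). All 3 calls were lost without the pair 2 stretch (adjusted p = 0.0702, 0.0600 and 0.183), and that of Ctss also without control mouse 1 (0.0509). Per area, Gpnmb was still 2.77, 1.38 and 1.35 times and Lyz2 2.03, 1.40 and 1.73 times as dense in the wall as between sections. The macrophage gene Cd5l (-1.30) and the transcription factor gene Maf (-1.35) were lower as well, with adjusted p = 5.36e-04 and 0.0107, and neither passed without the pair 2 stretch.

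Of 14 matrix genes, the collagen genes Col3a1 and Col1a1 were lower as a share, with a list median of -0.15. Col3a1 had 3056, 3442 and 3434 CPM in the wall and 4620, 4479 and 5026 between sections, without overlap (log2 difference -0.43, SE 0.11, adjusted p = 0.00971 by edgeR). It did not pass without control mouse 1, control mouse 3 or the pair 3 stretch (adjusted p = 0.201, 0.0766 and 0.144). Col1a1 stood at -0.50 (adjusted p = 0.0154), and Mgp did not pass (-0.12, adjusted p = 0.662). Lox, which crosslinks collagen and elastin, was the 1 elastic fibre gene that passed (-0.79, adjusted p = 0.0139). Of the other genes lower in the wall, Igkc, an immunoglobulin chain, stood at -0.54 (adjusted p = 0.0149), the intestinal gene Gsdmc4 at -1.02 (adjusted p = 0.00469) and Abhd17c at -1.24 (adjusted p = 0.0118), and each of these 3 failed without control mouse 1 (adjusted p = 0.232, 0.0990 and 0.0560). Comp (-1.05) and Wdr26 (-1.14) had adjusted p = 0.0228 and 0.0466, and 0.0928 and 0.0935 with the pair as a block. Gm42418 was lower in the wall (-0.93, adjusted p = 2.97e-07 by edgeR), but its between-section values ran from 58921 in pair 1 through 35357 to 14946 CPM in pair 3, the last within the range of the wall, and DESeq2 gave adjusted p = 0.690.

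Against the AAA wall, 14 of 17 contractile genes were higher in the control wall, and 9 of 12 macrophage and 6 of 14 matrix genes were lower. Over 6153 genes, 165 passed (2.68%), 93 higher (1.51%) and 72 lower (1.17%) in the control wall by edgeR. DESeq2 called 88 (1.43%), with 61 higher (0.991%) and 27 lower (0.439%). Scaled by library size alone the split was 77 higher and 102 lower. The AAA sections cover more area and carry 496636 to 1077659 exonic UMIs per mouse, so they are measured more precisely than the control sections. Dense squares covered 62.0% to 72.7% of the area in AAA bounds, against 46.5% to 51.2% in control bounds. UMI densities were 85273, 73629 and 57374 per mm² in AAA mice 1 to 3, above every control mouse. The 2 groups thus mix tissue and surface RNA in unequal parts, and what this adds to the differences was not tested.

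Of 17 contractile genes 14 were higher in the control wall and none lower, with a median log2 difference of 0.67 beside 0.00 over all genes. Acta2, at 3962, 3816 and 4892 CPM in the AAA mice, differed by 0.81 (SE 0.11, adjusted p = 8.99e-07 by edgeR). Synpo2, an actin-binding protein of the contractile apparatus, had 382, 295 and 452 CPM in the control and 175, 177 and 189 in the AAA mice (1.14, SE 0.16, adjusted p = 1.51e-06). Myh11 had 327, 151 and 327 against 144, 131 and 135 (1.06, SE 0.19, adjusted p = 1.46e-04). No control mouse overlapped the AAA mice for these genes. Sost stood at 174.5, 139 and 132.5 in the AAA mice (1.51, SE 0.16, adjusted p = 5.35e-09). The genes of largest difference under the naming rule also included the striated muscle gene Tcap (1.86), the kinase gene Mylk4 (1.57) and, lower in the control wall, the leukocyte gene Lst1 (-2.83), each with at most 23 UMIs in any control mouse. Mylk4 failed without control mouse 3 and over whole genes (adjusted p = 0.231 and 0.318).

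Brown adipocyte genes set the control wall apart from the AAA wall although they were scarce. Ucp1 had 255, 201 and 201 CPM in the control and 121, 84.6 and 112 in the AAA mice (log2 difference 1.07, SE 0.19, adjusted p = 2.18e-04 by edgeR). Cox8b, a cytochrome oxidase subunit of brown fat and striated muscle, had 238, 151 and 95.5 against 50.1, 56.4 and 48.3 (1.70, SE 0.25, adjusted p = 5.19e-06). All 4 tested brown adipocyte genes were higher in the control wall, and none of 16 tested genes of the adipocyte list passed. Against the between-section surface 4 brown adipocyte genes were tested and none passed. Their list held 0.0522%, 0.0385% and 0.0440% between sections of pairs 1 to 3, overlapping the control mice. The brown adipocyte share was 0.135% in mouse 1 section 1 and at most 0.0614% in the other 9 control sections. Without control mouse 1, Cidea and Cox7a1 did not pass (adjusted p = 0.205 and 0.272).

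Of 12 macrophage genes 9 were lower in the control wall, Lyz2 by 1.01 and Gpnmb by 1.08 on the log2 scale (SE 0.14 and 0.17, adjusted p = 8.99e-07 and 3.07e-05 by edgeR). Of 14 matrix genes 6 were lower, among them Col3a1 (-0.51, adjusted p = 0.00168) and Mgp (-0.42, adjusted p = 0.0162), and Mgp did not pass without control mouse 2 or AAA mouse 3 (adjusted p = 0.0877 and 0.241). Eln was lower by 0.44 (adjusted p = 0.0228) but failed without any 1 control mouse (adjusted p = 0.0531 to 0.114) and without AAA mouse 3 (0.193). None of 9 hepatocyte genes and none of 77 ribosomal protein genes passed.

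The 3 control mice themselves differed in few genes. An edgeR test for any difference among mice over the 10 sections, which describes these mice only because sections of one mouse lie near each other, called 7 of 768 genes (0.911%). They were Hba-a2, Hbb-bs, Hbb-bt, Gm42418, Pam, Dstn and Csrp2.

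The globin genes followed mouse more than section. Hba-a2 stood at 2596, 2028 and 1011 CPM in the 3 sections of mouse 1, at 2932, 3597 and 1988 in those of mouse 2 and at 771, 876, 849 and 807 in those of mouse 3 (adjusted p = 8.87e-07 by edgeR). Section 3 of mouse 1 lay nearer to mouse 3 than to its own sections. Hbb-bs and Hbb-bt had adjusted p = 2.34e-04 each.

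The muscle-related calls went together with mouse 2. Csrp2, a LIM protein of smooth muscle, had 541, 786 and 804 CPM in the sections of mouse 1, 497, 282 and 219 in mouse 2 and 679, 684, 728 and 718 in mouse 3 (adjusted p = 0.0186 by edgeR). Dstn (destrin, which severs actin filaments) had 1444 to 1712, 811 to 1213 and 1533 to 1861 (adjusted p = 0.0186), and Pam, an amidating enzyme of secreted peptides, 708 to 1011, 347 to 445 and 732 to 897 (adjusted p = 0.00967). Sections of mouse 2 were below all sections of the others for each of the 3 genes. Acta2 was also lower in mouse 2, at 4832 to 6366 against 7037 to 8869 and 7840 to 8207, but did not pass (adjusted p = 0.171). Mouse 2 also had the fewest UMIs and the highest hepatocyte, blood and Gm42418 shares, and the part of these in the muscle calls was not tested.

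**Figure D5:**
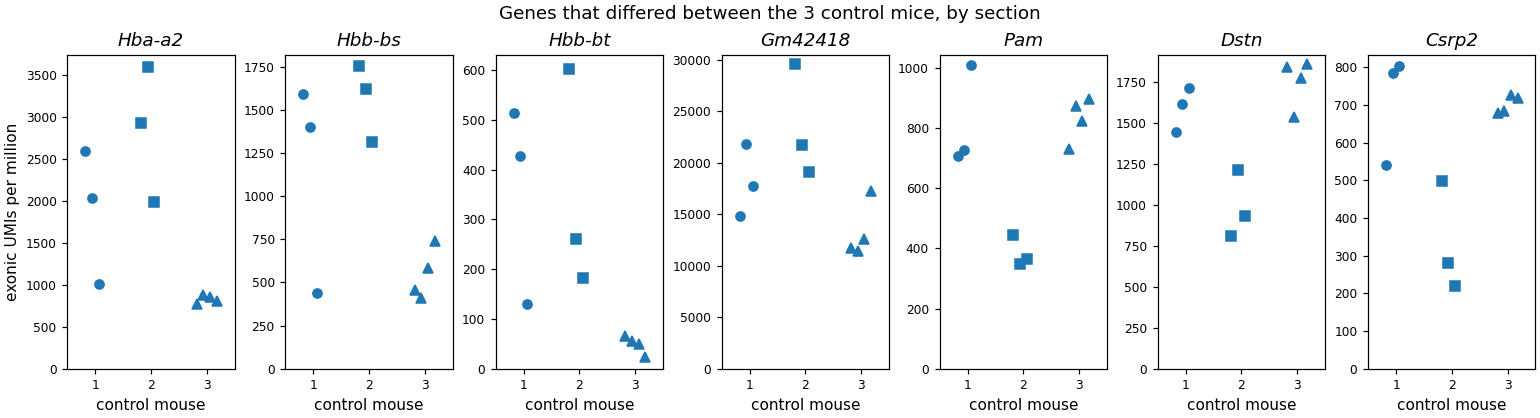
Exonic UMIs in CPM in each control section for the 7 genes that differed between the 3 control mice, by mouse. Hba-a2 is lower in all 4 sections of mouse 3 than in any other, and Pam, Dstn and Csrp2 are low in all 3 sections of mouse 2.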

How the data were processed

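Per the labels and methods, the authors sequenced array barcodes and 2 aorta libraries of both conditions, and deposited 1 matrix of UMI counts made with STAR and STARsolo 2.7.5c on mm10 (submitters' processing notes, which also name Seurat 4). It has exonic and whole-gene count columns that are not normalized, and 0 columns were left unmapped. Of 9837644 barcodes, 763 lacked a position. Scale and offset of positions were chosen so that exonic UMIs along the array best matched section bounds read from the study's section map. The fit gave 26.62 units per μm and a profile correlation of 0.901 (0.322 for the opposite order). Exonic counts were summed per mouse, section or stretch. edgeR 4.0.16 in R 4.3.3 (TMM, filterByExpr, quasi-likelihood test, Benjamini-Hochberg) gave the tests, with DESeq2 1.42.0 beside it. Tested on simulated data, it recovered 54% and 84% of genes changed by log2 folds of 1 and 2 for wall against surface (2838 genes) and 59% and 91% for control against AAA (6153 genes). Control depth, 139176 to 198904 UMIs per mouse, limits precision for genes of low count.

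Members, lists and tests were chosen with earlier results of these data known. Named genes were the 20 of highest mean share (mt-, Gm and Rik genes shown apart), up to 4 leading members of each list, up to 10 genes each way against the surface and 5 against AAA of largest difference that passed with 1 sign in all pairs, the 10 of smallest p among mice, and Apoe. Sost, Ptgis, Lmod1, Tpm1, Myh11, Synpo2, Col1a1, Lox and Flna were also named after values were seen. Same-numbered control and AAA mice share a frozen block on the section map, and a stretch carries the number of its block. Correlations of deviations of same-numbered mice were 0.0281, 0.00560 and 0.0735, and 0.00374, -0.0286 and 0.00401 for wall and surface. Exon lengths and genes came from GENCODE vM21. The 3 samples of the control and AAA groups are separate mice, and the 3 of the surface are stretches of array. The background-subtracted shares, the zones and the fit without Gm42418 were added after seeing the data. 1 gene that the rule names is not reported here.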

Additional observations from a re-analysis of the deposited data

Results flagged for a closer look

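Over the 10 control sections, 45 values (the share of each gene list, the level of each of the 20 leading genes and the UMI density) were compared with Dixon's test, in which chance flags about 1 in 20. In 3 of them, 1 section stood apart from the other 9. The brown adipocyte share was 0.135% in section 1 of mouse 1, and the next section had 0.0614%. The skeletal muscle share was 0.0152% in section 2 of mouse 2 against 0.00524% in the next, and the pancreas share was 0.0291% in section 3 of mouse 3 against 0.0157%. Both rest on few UMIs, with 11 of skeletal muscle genes in all of mouse 2 and 32 of pancreas genes in all of mouse 3.

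On lane 1 of the array, which enters no test here, the intestinal gene Mptx1 took 2.17% of exonic UMIs, above the mean of 0.564% in the control wall. Lane 1 held contractile smooth muscle genes at 0.785%, below each control mouse.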

How the results depend on the processing

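The control wall kept a higher UMI density than the surface under each alternative, at 2.84 to 4.69 times, all with the same fitted placement. Against the surface, 29 genes passed with DESeq2, 20 without the low-count filter (which moved the median log2 difference of all genes to 0.37), 2407 over whole genes, and 36 to 116 with 1 mouse or stretch left out (36 without control mouse 1, 40 without the pair 3 stretch, 116 without control mouse 2). With the pair as a replicate block 64 passed, 60 of them among the 75. Against AAA, 88 passed with DESeq2, 202 without the filter (50 higher, 152 lower, median -0.26), 137 over whole genes (52 higher, 85 lower), 84 to 176 with 1 mouse left out (84 without control mouse 3, 103 without control mouse 1) and 188 with the replicate block. Beside the 5 genes given above with the pair as a block, it ended the call of Gm10722 and of no other named gene. Between mice, 4 passed without the filter, 21 over whole genes, 11 with bounds shrunk by 75 μm and 4 to 11 with 1 section left out (4 without mouse 2 section 3, 11 without mouse 1 section 1). Mean shares in the control wall moved over whole genes to 1.04% for muscle, 1.04% for matrix, 0.468% for fat and 0.0663% for blood, and without mt and Gm genes to 2.78%, 2.82% and 1.13% for the first 3. Matrix was 2.17% after subtraction of the surface. Over whole genes the log2 difference from the surface turned negative for Acta2 (-0.22), Myl9 (-0.14), mt-Co2 (-0.32), mt-Cytb (-0.44), mt-Co1 (-0.30), mt-Co3 (-0.34) and Gm4117 (-0.11). The cause of these changes was not tested. Of 93 calls of named genes, 1119 of 1353 values under alternatives kept direction and threshold, 227 lost the threshold and 7 turned, and 7 of 41 calls against the surface and 24 of 52 against AAA held in every alternative that gave a value. The 25-μm squares, 200 μm margin and read bounds limit all placements.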
